A study of Mus musculus with 6 samples.

Results

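The tight junction genes described here are Tjp1, Tjp3, Ocln, Marveld2, Marveld3, F11r, Cgn, Cgnl1 and Cxadr, 9 of the 52550 genes listed in the data. They were taken by symbol, through the Ensembl identifier of each gene, and each symbol matched 1 listed gene. RNA was sequenced from liver cells of Sox9-GFP mouse embryos of the CD-1 strain, sorted for a green fluorescent reporter of SOX9, a transcription factor of the biliary lineage. Of the 6 libraries, 3 were from E16.5 and 3 from E18.5 (the sample labels give embryonic days 16 and 18) and are called replicates A, B and C of each stage. Each library came from a pool of 15 livers, from which blood cells had been depleted with antibodies before the sort, and all 6 libraries carry the same reporter, so that by their labels the groups differ in age. The sort selected on SOX9 reporter activity and not on cell type. Which embryos or litters went into which pool is not given, so p-values measure the spread between these pools.

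Tight junctions are belts of adhesion near the apical pole of epithelial cells that seal the space between neighbours, and in a bile duct they keep the content of the lumen from leaking between cholangiocytes. Claudins form the seal itself. The genes described here encode its scaffolds and the adhesion proteins beside it: the zonula occludens proteins ZO-1 (Tjp1) and ZO-3 (Tjp3) tie the membrane proteins to actin, cingulin (Cgn) and paracingulin (Cgnl1) sit below them on the cytoplasmic side, occludin (Ocln), tricellulin (Marveld2) and Marveld3 are the membrane proteins with a MARVEL domain, and JAM-A (F11r) and the coxsackievirus and adenovirus receptor (Cxadr) are adhesion proteins with immunoglobulin domains.

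All 9 genes were expressed at both stages, and in all 9 the 3 E18.5 libraries lay above the 3 E16.5 libraries in TPM, a level scaled by gene length and by the total of the library. The same held for 45.0% of the 22452 genes tested. With limma on log2(TPM + 1), 7 of the 9 rose (Benjamini-Hochberg adjusted p under 0.05 over all genes tested), where 26.0% of all genes rose and 31.2% were called in either direction. The rises were uneven. The scarce members Marveld3 and Tjp3 had 3.21 and 2.74 times their E16.5 mean, Cgnl1 had 2.05 times, and Tjp1, Marveld2, Ocln and Cxadr had 1.56 to 1.70 times, while Cgn (1.38 times) and F11r (1.12 times) did not pass the test. The median log2 fold change of all genes tested was 0.42, so each value is to be read against a general upward shift of TPM. That of the 9 was 0.69.

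How many of these calls were made depended on the scaling and on single libraries. With quantile normalization 5 of the 9 were called, where 1916 of 22452 genes were called higher. With median-of-ratios scaling, which sets the median change of all genes to 0.00, the calls fell from 7 to 2 (Marveld3 and Cgnl1), against 6.49% of all genes called higher, and the log2 fold changes spanned -0.30 (F11r) to 1.30 (Marveld3). Leaving out replicate A of E16.5 left 4 calls, replicate A of E18.5 left 0 and replicate B of E18.5 left 1 (Cgnl1). The 0 calls stood beside 7 members higher at an unadjusted p under 0.05 in the same limma fit, and voom on the recovered reads called 6 of 8 members with all libraries. Over the whole table the calls fell from 7000 to 4376, 1472 and 2917 in the same 3 fits, and to 4082 without replicate C of E16.5, where 6 members passed.

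**Figure D1:**
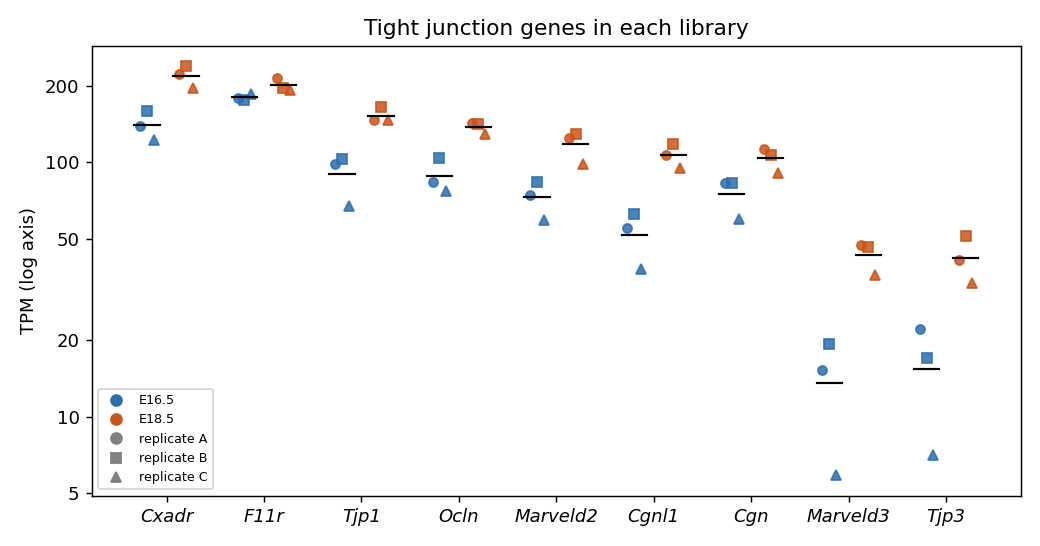
Level of each of the 9 genes in each library, in TPM on a log axis; blue marks E16.5, orange E18.5, symbols stand for replicates A, B and C, and black bars for the mean of 3 libraries. In every gene the orange points lie above the blue ones, by least in F11r (175 to 185 TPM against 193 to 214), and replicate C of E16.5 is the lowest library in all but F11r.

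The libraries held 13093937 to 26206374 reads, recovered from the TPM and the exon lengths, and every E18.5 library was shallower than every E16.5 library. For the 8 members whose reads could be recovered (all but Cxadr), single values rested on 154 to 7795 reads. The sort was not purely biliary by its transcripts. Of 11 cholangiocyte markers (among them Sox9, Krt19 and Epcam), 9 were called higher. Those called were 4 with no filter, 4 with median-of-ratios scaling and 4 with quantile normalization. They were 1 without replicate A and 3 without replicate B of E18.5. The 11 markers summed to between 802 and 2607 TPM in the early libraries and between 8113 and 14043 TPM in the late ones. Most of these sums was Spp1 (osteopontin), with 469 to 1767 TPM early and 6629 to 12121 TPM late, and the other 10 genes summed to 333 to 840 TPM and then 1484 to 1923 TPM. The sums for 12 hepatoblast markers (among them Alb and Afp) were 161532 to 202790 TPM early and 37246 to 87201 TPM late, with 7 of 12 called lower. Those called lower were 3 with no filter, 2, 3 and 2 without replicates A, B and C of E16.5, and 2, 6 and 7 without those of E18.5. Hepatoblasts are the bipotent precursors of hepatocytes and cholangiocytes. All 10 megakaryocyte markers fell (summed TPM 3327 to 9645 early, 90.4 to 761 late), as did 2 of 6 tested pancreatic acinar genes (78.5 to 2416, then 17.8 to 53.1). The acinar calls were 0 with no filter, with median-of-ratios scaling and when any 1 E18.5 library was left out. In those fits 2 or 3 acinar genes were lower at an unadjusted p under 0.05 by limma. Voom called 0 of 5. The calls were 1 with quantile normalization and 3 without replicate C of E16.5. The 2416 TPM were in replicate A of E16.5 alone, with 1914 TPM of Ctrb1, and replicates B and C of E16.5 had 221 and 78.5 TPM. Higher at E18.5 were 2 of 10 endothelial (138 to 216, then 136 to 255), 2 of 10 mesenchymal (172 to 338, then 321 to 814), 1 of 7 tested leukocyte (83.7 to 131, then 82.9 to 148) and 5 of 5 tested mesothelial genes (4.07 to 11.8, then 42.4 to 85.4). Over all genes tested, limma called 26.0% higher and 5.22% lower. The endothelial, mesenchymal and leukocyte counts did not exceed that share of higher calls. For erythroid genes (217 to 293, then 103 to 594) limma called 0 of 8, 0 also at an unadjusted p under 0.05, and voom called 0. No listed marker was at 0 in every library. The part of these other cells in the values below was not tested, and in bulk RNA fewer cells of a type and less RNA per cell cannot be told apart.

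Replicate C of E16.5 stood apart among the early libraries. Its cholangiocyte markers summed to 802 TPM, against 2057 and 2607 in the other two, and its hepatoblast markers to 202790 TPM, against 161532 and 170005. The 9 tight junction genes together had 750, 807 and 621 TPM in the early replicates (A, B, C) and 1159, 1192 and 1018 TPM in the late ones.

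The zonula occludens scaffolds differed widely in level. Tjp1, which encodes ZO-1, is ENSMUSG00000030516.14 on the reverse strand of chromosome 7 (GRCm38, 65296165 to 65527781), with 7811 bp of exon sequence. It had 98.4, 103 and 67.5 TPM at E16.5 (replicates A, B and C, the order used throughout) and 146, 165 and 146 TPM at E18.5. The means of 89.7 ± 19.3 and 152 ± 11.1 TPM (SD, n = 3) lay above those of 94.5% and 97.0% of protein-coding genes, and the log2 fold change was 0.78 (standard error 0.18, limma adjusted p = 0.0208).

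Tjp3, whose protein ZO-3 is the family member restricted to epithelia, is ENSMUSG00000034917.8 on the reverse strand of chromosome 10 (81273207 to 81291581), with 3714 bp of exon sequence, of which 1.08% overlaps exons of Apba3 on the other strand. Its libraries had 22.0, 17.0 and 7.05 TPM at E16.5 and 41.4, 51.2 and 33.6 TPM at E18.5. The low value of replicate C came from 209 reads (95% Clopper-Pearson interval 6.13 to 8.08 TPM, for counting error only), below the intervals of replicates A (20.4 to 23.7) and B (15.5 to 18.6). The log2 fold change was 1.51 (standard error 0.38, limma adjusted p = 0.0278), larger than that of 96.2% of the genes tested. Without replicate C of E16.5 it was 1.06 and still past the threshold. With median-of-ratios scaling it was 1.07 and was not (adjusted p = 0.0707).

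Within each library Tjp1 was therefore several times Tjp3, and by less at the later stage. The log2 ratio of Tjp1 to Tjp3, which no scaling between libraries can move, was 2.16, 2.60 and 3.26 at E16.5 and 1.82, 1.69 and 2.12 at E18.5. The geometric mean ratio went from 6.38 to 3.67, a log2 difference of -0.80, or -0.50 without replicate C of E16.5. The stages did not overlap, and the exact two-sided permutation test gave p = 0.1, the smallest that 3 libraries against 3 allow (adjusted over the 5 ratios compared, 0.125).

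On the cytoplasmic plaque the pattern repeated with cingulin and paracingulin. Cgn (ENSMUSG00000068876.14, chromosome 3, 94760069 to 94786492, reverse strand) had 82.9, 82.6 and 59.9 TPM at E16.5 and 113, 107 and 90.5 TPM at E18.5. Its log2 fold change of 0.46 (standard error 0.16, limma adjusted p = 0.0666) did not pass and was close to the median of all genes; with median-of-ratios scaling it was 0.00.

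Cgnl1 (ENSMUSG00000032232.14, chromosome 9, 71626509 to 71771602, reverse strand), which also serves adherens junctions, had 55.2, 62.5 and 38.0 TPM at E16.5 and 107, 118 and 94.5 TPM at E18.5. Its mean went from 51.9 ± 12.6 to 107 ± 11.5 TPM (SD, n = 3). The log2 fold change was 1.05 (standard error 0.20, limma adjusted p = 0.0142), and 0.59 with median-of-ratios scaling (adjusted p = 0.0342), where it still passed.

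Cgn thus exceeded Cgnl1 at E16.5 in every library and was level with it at E18.5. Their log2 ratio was 0.59, 0.40 and 0.66 at E16.5 and 0.07, -0.14 and -0.06 at E18.5, a difference of -0.59 between the stages with no overlap (exact permutation p = 0.1).

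The 250 bases before the start of a member gene were searched on both strands for GGGCGG (the GC box, a common promoter element), CACCTG (the E-box form that Snail and Zeb repressors bind), AACCGGTT (Grainyhead) and GGAATG (TEAD). RefSeq (GRCm38.p6) gave such a sequence for 7 members; Marveld3 and Cxadr are not among them. A GC box was found for 6 of the 7, against 32.7% of 32851 promoter sequences of that length, and CACCTG for 3 of the 7, against 17.2%. These shares count single sequences, whereas a member counted if any of its listed starts had a match, which favours the members. Ocln had no CACCTG at its upstream start and 2 at its other listed start. Neither AACCGGTT (0.116% of all) nor GGAATG (12.6%) was found in any of them. The sequences of the scaffold and plaque pairs are shown because the members of each pair differ in level or change. That of Tjp1 had 2 GC boxes and 63.2% G and C, and its RefSeq start lies within the gene as GENCODE draws it. Tjp3 was the member without a GC box. At its upstream start the sequence had 43.2% G and C (median of all promoters 52.4%) and 1 CACCTG, and at its other listed start 57.2% G and C and 1 CACCTG. The sequences of Cgn and Cgnl1 had 6 and 2 GC boxes. Each is written 5′ to 3′ on the strand of the gene, with matches to GGGCGG or CACCTG on either strand in capitals; a match in these letters is a description of the sequence and not a bound site.
Tjp1, chr7:65371245-65371494, reverse strand: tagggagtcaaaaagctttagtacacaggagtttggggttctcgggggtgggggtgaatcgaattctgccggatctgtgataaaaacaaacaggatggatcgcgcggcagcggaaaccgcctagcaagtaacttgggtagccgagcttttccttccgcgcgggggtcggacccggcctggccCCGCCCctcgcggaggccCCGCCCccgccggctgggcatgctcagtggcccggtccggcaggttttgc
Tjp3, chr10:81291582-81291831, reverse strand: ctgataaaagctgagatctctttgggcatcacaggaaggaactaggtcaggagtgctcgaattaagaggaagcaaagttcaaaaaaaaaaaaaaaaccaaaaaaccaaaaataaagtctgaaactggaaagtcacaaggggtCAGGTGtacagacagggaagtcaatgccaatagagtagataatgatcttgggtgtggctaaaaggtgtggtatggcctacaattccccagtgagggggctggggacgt
Cgn, chr3:94786483-94786732, reverse strand: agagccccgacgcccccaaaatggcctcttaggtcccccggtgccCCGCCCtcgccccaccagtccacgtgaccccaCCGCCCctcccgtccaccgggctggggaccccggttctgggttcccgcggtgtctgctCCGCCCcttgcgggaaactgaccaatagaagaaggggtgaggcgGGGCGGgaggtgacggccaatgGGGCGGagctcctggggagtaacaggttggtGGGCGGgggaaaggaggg
Cgnl1, chr9:71771603-71771852, reverse strand: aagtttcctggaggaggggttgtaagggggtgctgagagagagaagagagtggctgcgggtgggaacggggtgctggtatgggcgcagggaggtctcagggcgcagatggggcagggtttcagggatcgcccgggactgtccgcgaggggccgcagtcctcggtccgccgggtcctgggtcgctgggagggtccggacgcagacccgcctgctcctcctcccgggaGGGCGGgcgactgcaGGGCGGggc

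Among the MARVEL proteins, occludin and tricellulin moved alike and Marveld3 apart. Ocln (ENSMUSG00000021638.12, chromosome 13, 100496507 to 100552718, reverse strand) had 83.9, 104 and 76.7 TPM at E16.5 and 142, 141 and 129 TPM at E18.5. Marveld2 (ENSMUSG00000021636.15), which lies next to it on the same strand (100595957 to 100616971) and whose protein gathers at the corners where several cells meet, had 74.5, 83.9 and 59.5 TPM at E16.5 and 125, 129 and 98.7 TPM at E18.5. The log2 fold changes were 0.65 for Ocln (standard error 0.14, limma adjusted p = 0.0177) and 0.69 for Marveld2 (standard error 0.17, limma adjusted p = 0.0250). With median-of-ratios scaling they were 0.18 and 0.23, and neither passed (adjusted p = 0.304 and 0.218).

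The 2 genes kept nearly the same proportion in every library. The log2 ratio of Ocln to Marveld2 was 0.17, 0.30 and 0.37 at E16.5 and 0.18, 0.13 and 0.39 at E18.5, and its difference of -0.05 between the stages was smaller than the SD within either stage (0.10 and 0.14; exact permutation p = 0.8).

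Marveld3 (ENSMUSG00000001672.14, chromosome 8, 109947914 to 109962203, reverse strand) was the scarcest member on average at E16.5, with 15.3, 19.3 and 5.88 TPM, and had 47.4, 46.5 and 36.1 TPM at E18.5. Its log2 fold change of 1.74 (standard error 0.39, limma adjusted p = 0.0200) was above that of 97.9% of the genes tested. It was 1.27 without replicate C of E16.5, where 154 reads gave the value of 5.88 TPM (95% interval 4.99 to 6.88), and 1.30 with median-of-ratios scaling (adjusted p = 0.0490); both passed. Combining the 2 changes gave 0.90 (adjusted p = 0.0343). The log2 ratio of Ocln to Marveld3 was 2.45, 2.42 and 3.71 at E16.5 and 1.58, 1.60 and 1.84 at E18.5, from 7.26 to 3.19 as a geometric mean ratio, without overlap (exact permutation p = 0.1). The log2 difference of -1.19 was -0.76 without replicate C of E16.5.

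**Figure D2:**
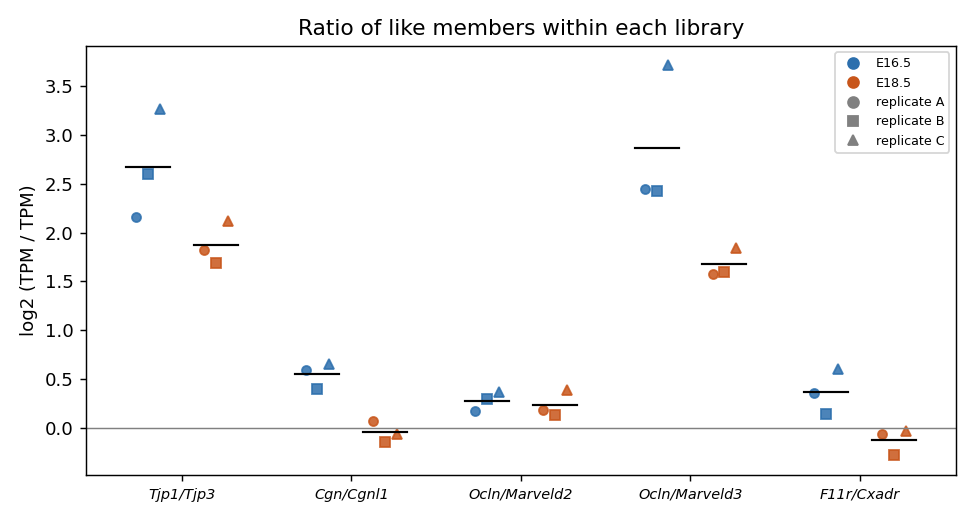
Log2 ratio of the TPM of one gene to that of another within each library, for 5 pairs of like proteins; colours mark stages, symbols replicates, black bars the mean of 3 libraries and the grey line equal levels. The stages separate for 4 pairs and overlap for Ocln/Marveld2, whose means are 0.28 and 0.23. The share of other gene pairs whose stages separate was not computed, so the count of 4 has no background to be read against.

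The adhesion proteins with immunoglobulin domains were the most abundant members. F11r (ENSMUSG00000038235.4, chromosome 1, 171437535 to 171464603, forward strand), which platelets, leukocytes and endothelium also use, had 179, 175 and 185 TPM at E16.5 and 214, 196 and 193 TPM at E18.5. Its E16.5 libraries differed least among the members, by 1.05 times from lowest to highest, and it alone was not lower in replicate C of E16.5 (1.04 times the mean of replicates A and B; the other 8 had 0.340 to 0.819 times). The log2 fold change of 0.16 (standard error 0.10, limma adjusted p = 0.243) did not pass, and its sign turned with median-of-ratios scaling (-0.30, adjusted p = 0.149). Beside it, the megakaryocyte marker Pf4 had 1830, 1112 and 3505 TPM at E16.5 and 15.8, 273 and 57.0 TPM at E18.5; the part of platelet-lineage RNA in the F11r values was not tested.

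Cxadr (ENSMUSG00000022865.13, chromosome 16, 78301489 to 78359774, forward strand), whose protein is a receptor for adenovirus, had 139, 159 and 122 TPM at E16.5 and 223, 238 and 196 TPM at E18.5. The version of its gene model differs from the annotation used here, so its reads were not recovered, and 9.46% of its annotated exon sequence is shared with Btg3 and the gene model Gm49590 on the other strand. The log2 fold change was 0.65 (standard error 0.14, limma adjusted p = 0.0186), and 0.18 with median-of-ratios scaling (adjusted p = 0.241). The log2 ratio of F11r to Cxadr was 0.36, 0.14 and 0.60 at E16.5 and -0.06, -0.28 and -0.03 at E18.5, so F11r was the higher of both in each early library and Cxadr in each late one (exact permutation p = 0.1, adjusted 0.125).

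In order of level at E16.5, F11r and then Cxadr stood above the rest without overlap. Tjp1, Ocln, Cgn, Marveld2 and Cgnl1 followed between 89.7 and 51.9 TPM in the mean, each overlapping the next, and Tjp3 and Marveld3 came last, overlapping one another (15.4 ± 7.61 and 13.5 ± 6.89 TPM, SD, n = 3). At E18.5 Cxadr and F11r overlapped at the top, Tjp1 and Ocln each stood clear of their neighbours, Marveld2, Cgnl1 and Cgn overlapped between 118 and 103 TPM, and Marveld3 and Tjp3 again overlapped at the bottom (43.3 ± 6.30 and 42.0 ± 8.79 TPM). The highest member was 11.7, 10.3 and 31.4 times the lowest within E16.5 replicates A, B and C, the last standing apart, and 5.12 to 5.84 times within an E18.5 library.

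**Figure D3:**
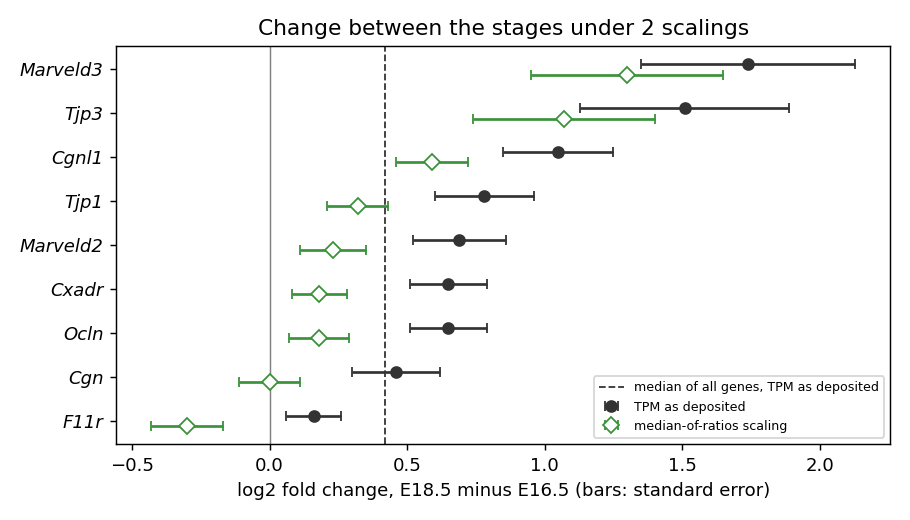
Log2 fold change between the stages for each of the 9 genes with its standard error from limma, from the TPM as deposited (filled circles) and after median-of-ratios scaling (open diamonds); the dashed line is the median of all genes tested, 0.42. Marveld3, Tjp3 and Cgnl1 lie to the right of the line by the most, Cgn lies on it and F11r to its left.

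A second measure free of scaling set each gene against Cdh1 (E-cadherin), Krt8 and Krt18, which hepatoblasts and cholangiocytes both make. Cdh1 itself rose by 1.31 on the log2 scale (limma adjusted p = 0.0156), as did Krt8 by 0.82 (0.0188), whereas Krt18 had 0.42 and did not pass (limma adjusted p = 0.0803). Against their mean in the same library, Tjp1 had -2.86, -2.89 and -2.94 on the log2 scale at E16.5 and -3.15, -2.78 and -2.96 at E18.5. Its stages overlapped, and the difference of -0.06 was in size above the SD at E16.5 (0.04) and below that at E18.5 (0.18). With the other reference given below the difference was -0.79. Ocln, Marveld2 and Cxadr had differences of -0.20, -0.15 and -0.20, and Tjp3 one of 0.73 (0.42 without replicate C of E16.5), all with overlap.

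The other 4 members did not overlap between the stages on this measure: Marveld3 was higher at E18.5 by 0.99 (0.64 without replicate C of E16.5) and Cgnl1 by 0.21 (0.11 without replicate B of E18.5), and F11r and Cgn differed by -0.69 and -0.38. None passed the exact permutation test after adjustment over the 9 genes (p = 0.1 each, adjusted 0.225). With Epcam, Cdh1 and Cldn3 as the reference, which lean to cholangiocytes, the difference was 0.26 for Marveld3, 0.01 for Tjp3 and -1.42 (F11r) to -0.51 (Cgnl1, which turned) for the other 7, and 8 of the 9 genes did not overlap. The place of a gene on this measure therefore depended on the reference. The share of all genes without overlap was not computed for either reference, so the counts of 4 and 8 have no background to be read against.

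**Figure D4:**
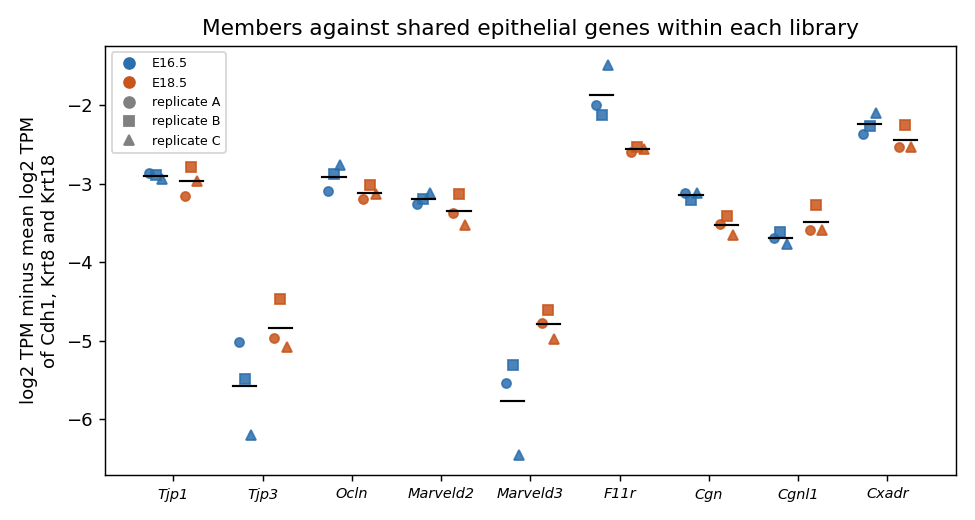
Log2 TPM of each gene minus the mean log2 TPM of Cdh1, Krt8 and Krt18 in the same library; colours mark stages, symbols replicates and black bars the mean of 3 libraries. With this reference Tjp1 has means of -2.90 and -2.96, Marveld3 of -5.77 and -4.78 and F11r of -1.87 and -2.56, while with Epcam, Cdh1 and Cldn3 the differences of these genes are -0.79, 0.26 and -1.42.

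Likeness of pattern was measured as the root mean square difference of log2(TPM + 1) over the 6 libraries, each gene centred on its own mean, among 11382 other protein-coding genes that reached 5 TPM on average. The genes nearest to Tjp1 were Kif3b, a kinesin motor subunit (0.022), Cdh24, a cadherin (0.024), and Prkcz, the polarity kinase of the Par complex (0.033). Of the members, Marveld2 came nearest to Tjp1 (0.125, rank 851 of the 11382 genes) and Marveld3 farthest (0.570, rank 9409). The gene nearest to Marveld3 was Sox9 (0.079), whose reporter the cells were sorted on, with 157, 186 and 69.5 TPM at E16.5 and 415, 466 and 353 TPM at E18.5. D630003M21Rik (0.084) and Mapk13, a p38 kinase (0.088), came next, and Tjp3 was the nearest member (0.246, rank 174). These distances describe 6 libraries that share their stages, and many genes share that step.

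The rest of the junction was read from lists written with earlier results of these data known. Of 19 tested genes of the plaque and its signalling, 14 rose and 0 fell by limma, where 26.0% of all genes rose and 5.22% fell (0 lower at an unadjusted p under 0.05 or by voom; median log2 fold change 0.82, against 0.42 for all genes). Magi1, a scaffold with PDZ domains, went from 43.0 ± 12.9 to 108 ± 3.84 TPM (SD, n = 3; log2 fold change 1.35), Amotl1, an angiomotin, from 39.4 ± 13.4 to 92.1 ± 9.11 TPM (1.27), and Pard6b, a Par polarity subunit, from 34.4 ± 8.32 to 72.5 ± 6.33 TPM (1.08). The rises called were 2 without replicate A of E18.5 and 8 without replicate B of E18.5. With median-of-ratios scaling 7 of the 19 were still called (6.49% of all genes), Magi1, Amotl1 and Pard6b among them, and 3 when replicate C of E16.5 was also left out.

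Of 12 other membrane adhesion genes, 8 rose and 0 fell by limma, beside the same 26.0% and 5.22% (median 1.02; 2 were lower at an unadjusted p under 0.05, and voom called 2 of 10 lower). The rises called were 4 with no filter, 5, 4 and 4 without replicates A, B and C of E16.5, and 2, 2 and 5 without those of E18.5. Ildr1, an angulin that recruits tricellulin, had 5.13, 7.40 and 1.05 TPM at E16.5 and 19.7, 21.1 and 20.7 TPM at E18.5, a rise of 2.18 on the log2 scale (limma adjusted p = 0.0201). Jam3, a relative of F11r, went from 3.72 ± 0.664 to 15.2 ± 2.89 TPM (SD, n = 3; log2 fold change 1.77), and Igsf5 from 33.4 ± 6.47 to 78.2 ± 6.70 TPM (1.22). With median-of-ratios scaling 2 of the 12 were higher (Jam3 and Igsf5) and 2 were lower (10.6% of all genes), namely Nectin1 and Esam, which with the deposited TPM had log2 fold changes of -0.32 and -1.20 and did not pass (limma adjusted p = 0.0646 and 0.0514). Nectin1 and Esam were named after their values had been seen.

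Of 15 tested claudins, 7 rose and 2 fell (median 1.21), where 26.0% and 5.22% of all genes did. The rises called were 1 with no filter and 0, 0 and 2 when E18.5 replicate A, B or C was left out (9, 7 and 7 higher at an unadjusted p under 0.05 by limma). The falls called were 1 with no filter, 1, 1 and 0 without replicates A, B and C of E16.5 and 0 without replicate A of E18.5 (2 at an unadjusted p under 0.05 in each). Voom called 0 lower, also at an unadjusted p, but covered only 10 of the 15, those with recovered reads. Whether the 2 that fell are among these 10 is not given here, so voom does not bear on their falls. Cldn3 had 54.3, 64.2 and 19.1 TPM at E16.5 and 133, 128 and 113 TPM at E18.5 (log2 fold change 1.59), Cldn4 rose by 1.59 and Cldn23 by 1.46 on that scale. Cldn1, which hepatocytes also make, fell from 234 ± 30.4 to 98.6 ± 39.1 TPM (SD, n = 3), and Cldn14 fell from 13.2 ± 2.26 to 2.89 ± 2.78 TPM. With median-of-ratios scaling, and with quantile normalization, 0 of the 15 were called higher by limma (6 at an unadjusted p under 0.05 in each, and voom called 6 of 10 higher). The sign of Cldn3, Cldn4 and Cldn23 was kept in both. Cldn1 and Cldn14 were called lower with median-of-ratios scaling (limma adjusted p = 0.0292 and 0.0332), and 2 claudins were called lower with quantile normalization.

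**Figure D5:**
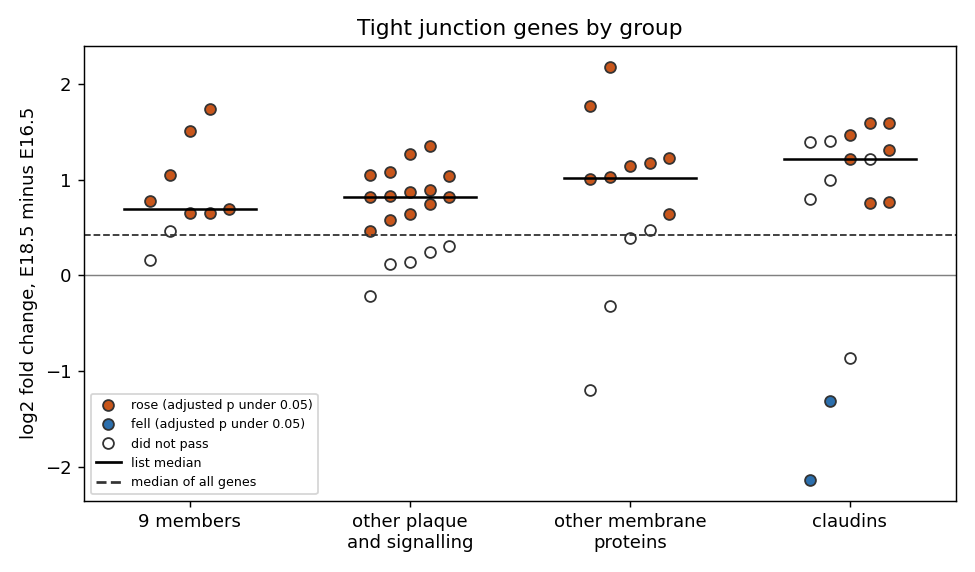
Log2 fold change between the stages of each tested gene in 4 groups of tight junction genes; orange points rose and blue points fell (limma adjusted p under 0.05), open points did not pass, bars are group medians and the dashed line is the median of all genes (0.42). The group medians are 0.69, 0.82, 1.02 and 1.21 from left to right, and the 2 genes that fell are claudins.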

How the data were processed

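RNA-seq values of 6 libraries from both stages were used; stages and replicate letters came from the sample labels. Following the methods and processing notes of the study, the authors trimmed reads, aligned with HISAT2 2.1.0 (GRCm38), obtained gene counts from HTSeq 0.5.4p3 with GENCODE annotation and deposited TPM, which sum to 1000000 in each library. TPM is relative: when abundant transcripts become fewer, all others gain. The kit is strand-specific; whether HTSeq counted by strand is not given in the sources used here.

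The stages were compared with limma 3.58.1 (R 4.3.3), with a mean-variance trend, on log2(TPM + 1). The 22452 genes that averaged 1 TPM or more were tested, with Benjamini-Hochberg adjustment; a fold change on this scale understates that of low genes. Reads were recovered with exon lengths of GENCODE vM21, which holds 52403 of the identifiers: of 180057 nonzero values of genes with the same version, 100% were whole within 0.01. Ratios within a library were tested with exact two-sided permutation tests (Python 3.11.15). The fit was also run on simulated counts that held no general shift between the stages and no outlying library, so that run does not bear on either. Libraries of one stage differed by a chi-square per degree of freedom of 17.1 or more, so none was a copy.

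The members and lists were chosen with earlier results of these data known. Named from each list were the 3 largest rises and 3 largest falls past the threshold with at least 5 TPM in the higher stage, and the genes nearest to Tjp1 and to the member with the largest change. Of the listed genes, Cldn25 matched no single gene, Pals1 was listed as Mpp5, and Magi2, Cldn10, Cldn11, Cldn19 and Cldn22 were under the filter. Results for some listed genes are not reported here. Alternatives were another pseudocount, other filters, scalings and variance models, a replicate block, voom on the recovered reads, other ratio references and leaving out each library; median-of-ratios scaling together with leaving out replicate C of E16.5 was chosen after seeing the data.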

Additional observations from a re-analysis of the deposited data

How the results depend on the processing

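The count of 7 called members was 5 to 8 with a pseudocount of 0.1, either filter, quantile normalization, eBayes without the trend, voom on the recovered reads (6 of 8 members) and the replicate block (8, Cgn being the addition, limma adjusted p = 0.0237; 7314 calls over all genes). The letters were not taken to pair the libraries: deviations of same-lettered libraries correlated at -0.0425, 0.0814 and 0.14 (A, B and C), and not every library correlated best with its own letter. The count was 2 with median-of-ratios scaling, 1 when replicate C of E16.5 was also left out, and 0 (without replicate A of E18.5) to 7 when 1 library was left out; those fits hold fewer libraries. Over all genes, 7000 calls became 4282 with no filter, where more genes enter the adjustment, 3816 with median-of-ratios scaling, 3796 with quantile normalization, 2308 with both that scaling and replicate C of E16.5 left out, and 1472 to 5686 when 1 library was left out; 83.3% of calls were higher at E18.5 with the deposited TPM, 38.0% with median-of-ratios scaling and 50.5% with quantile normalization. Why the calls depend on single E18.5 libraries was not tested.

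Marveld3 and Cgnl1 passed in 13 of 15 alternatives each, Tjp1 in 11, Ocln in 10, Tjp3 in 9, Cxadr in 9 of 14 and Marveld2 in 8; Cgn passed in 1 and F11r in 0. None of the 7 called members changed sign. F11r turned to -0.30 with median-of-ratios scaling and to -0.21 when replicate C of E16.5 was also left out, where Cgn had -0.07. The ratios of 4 of the 5 pairs kept their stages apart with 1 TPM added, a count for which no share over other gene pairs was computed. Leaving out a library cannot make stages overlap that were apart, so those alternatives could not lower this count. Without replicate C of E16.5, Tjp1/Tjp3 went from -0.80 to -0.50 and Ocln/Marveld3 from -1.19 to -0.76. Ocln/Marveld2 had -0.13 to 0.01 when 1 library was left out. Against Cdh1, Krt8 and Krt18, 4 members did not overlap. The count was 4 to 8 (without replicate B of E18.5) when 1 library was left out, which cannot lower it. Tjp1 then had -0.16 to 0.03. With Epcam, Cdh1 and Cldn3 as reference 8 did not overlap and Cgnl1 had -0.51.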
